A study of Mus musculus with 4 samples.

Results

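Type I interferon-stimulated genes are the genes that cells switch on when they sense type I interferon. The 35 described here were chosen by name, and 34 of the 35 have a probe among the 27336 gene names on the array. Dtx3l, the ubiquitin ligase partner of Parp9, has no level here and enters only the search of promoter sequences. Each gene was represented by its brightest probe, and 33 were well above background on at least 1 array, by the flag the scanner software gives each spot. Of these, 31 were well above background on all 4 arrays. Oas3 and Ddx60 were well above background only on the 2 arrays from tumor-bearing mice. Mx1 was well above background on no array and has no fold change here.

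The RNA came from alveolar type II cells (AT-II cells, which make lung surfactant) taken by flow sorting from mice labelled female. The 4 groups were wild-type (WT) mice without tumor, WT mice with tumor, Tlr3-/- mice without tumor and Tlr3-/- mice with tumor, where tumor means that Lewis lung carcinoma cells had been placed under the skin 2 weeks earlier. Tlr3 encodes an endosomal receptor for double-stranded RNA, and the design asks how a tumor elsewhere in the body changes these lung cells with and without it. Each group is 1 array, and differences describe single array pairs, with no p-value. The labels name neither the strain, the age, how many mice went into an array nor the surface markers of the sort, and the growth protocol gives no vehicle injection for mice without tumor.

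Type I interferons bind a receptor of the subunits Ifnar1 and Ifnar2, whose kinases Jak1 and Tyk2 phosphorylate Stat proteins. Stat2 and Irf9 are subunits of the complex ISGF3, which binds interferon-stimulated response elements in promoters of genes that block viral entry, translation and replication. Lung epithelial cells respond to type I and type III interferons, and some members, among them Rsad2 and the Ifit genes, can also be induced through Irf3 without interferon.

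RefSeq promoter windows of the GRCm38.p6 assembly, 250 bases before to 50 bases after the transcription start, were matched for 26 members, Dtx3l among them. The 9 members Oas1b, Parp14, Parp9, Oas2, Mx2, Mx1, Zbp1, Usp18 and Rtp4 had no window. The letters GAAA, any 2 bases and again GAAA, the core of an interferon-stimulated response element, were searched on both strands, with overlapping matches counted. They occurred in 11 of the 26 members (42.3%), against 3.99% of 27025 genes with a window and 3.69% of 12238 genes that also were well above background on at least 1 array. The stricter form with CT after the final GAAA, which contains the first motif, occurred in 6 members (23.1%) against 0.303% of genes. The letters TTCNNNGAA, the core of a gamma-activated site, occurred in 7 members (26.9%) against 9.55% of genes. A match is a description of the window and not a shown binding site. The 180 bases before the start are printed 5′ to 3′ on the gene's strand for 6 members, because these genes moved differently across the arrays although each carries the motif: Rsad2 and Ddx60 (higher with tumor in WT), Ifit1 and Ifit3 (lower with tumor in Tlr3-deficient cells), and Isg15 and Oas1a (under 2-fold in every comparison). Capitals mark this core or its reverse complement, and adjoining capitals are overlapping matches.
Rsad2, chr12:26456453-26456632, minus strand: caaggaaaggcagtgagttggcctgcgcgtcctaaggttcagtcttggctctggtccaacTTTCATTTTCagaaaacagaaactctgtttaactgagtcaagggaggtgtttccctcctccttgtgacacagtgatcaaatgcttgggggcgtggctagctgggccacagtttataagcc
Ddx60, chr8:61927907-61928086, plus strand: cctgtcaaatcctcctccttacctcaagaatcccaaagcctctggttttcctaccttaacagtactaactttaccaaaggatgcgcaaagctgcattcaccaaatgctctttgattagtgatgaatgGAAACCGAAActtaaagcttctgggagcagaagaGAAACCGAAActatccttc
Ifit1, chr19:34640709-34640888, plus strand: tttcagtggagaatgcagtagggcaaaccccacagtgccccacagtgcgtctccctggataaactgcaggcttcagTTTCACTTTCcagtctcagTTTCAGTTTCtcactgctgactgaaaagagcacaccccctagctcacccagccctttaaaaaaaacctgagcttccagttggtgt
Ifit3, chr19:34583349-34583528, plus strand: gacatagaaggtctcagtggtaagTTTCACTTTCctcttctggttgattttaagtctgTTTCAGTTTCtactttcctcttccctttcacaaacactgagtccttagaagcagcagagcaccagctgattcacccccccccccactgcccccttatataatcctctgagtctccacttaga
Isg15, chr4:156200819-156200998, minus strand: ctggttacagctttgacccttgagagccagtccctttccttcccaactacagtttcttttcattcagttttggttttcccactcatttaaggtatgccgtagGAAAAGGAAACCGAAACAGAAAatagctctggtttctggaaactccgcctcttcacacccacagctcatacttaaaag
Oas1a, chr5:120907526-120907705, minus strand: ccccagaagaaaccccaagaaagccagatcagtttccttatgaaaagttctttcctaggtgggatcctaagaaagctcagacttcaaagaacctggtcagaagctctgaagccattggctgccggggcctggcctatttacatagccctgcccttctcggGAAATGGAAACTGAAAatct

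Rsad2 held 1 match, from -120 to -111 relative to the start on the strand opposite the gene. Ifit1 and Ifit3 held 2 each, also on the opposite strand, and Isg15 held 3 overlapping ones between -78 and -57. Stat2, Oas3, Ifitm2, Ifitm3 and Bst2 were the other members with a match.

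**Figure D1:**
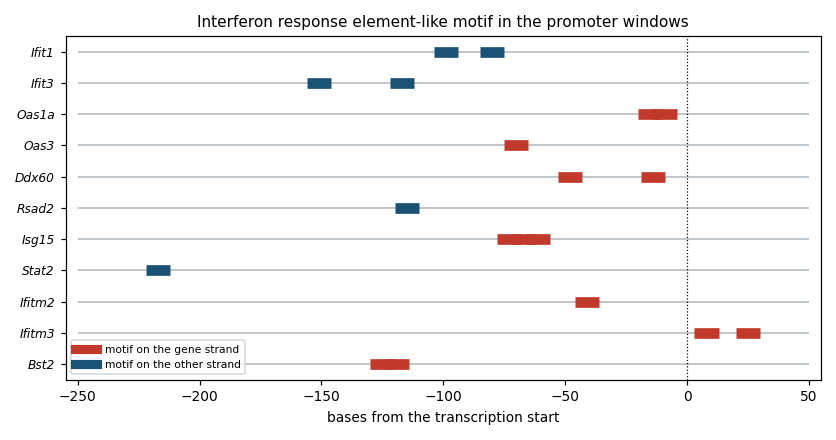
Position of the response element core (GAAA, any 2 bases, GAAA) in the promoter windows of the 11 members that hold one, in bases from the transcription start (dotted line). Red blocks lie on the gene's strand and blue blocks on the opposite strand; the matches of Ifitm3 lie after the start, from 3 to 12 and from 20 to 29, and all others lie before it.

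Levels are log2 processed intensity minus the array's 75th percentile, so 0 is the brightness of the spot at that percentile and each probe is compared only with itself across arrays. The 75th percentiles were 554 to 907 intensity units, 61.0% to 65.5% of gene spots were well above background, and no spot was saturated. The 12 AT-II markers of a fixed list were well above background on all 4 arrays, and 0 of them changed by 2-fold with tumor in either genotype. The arrays came from 3 slides, WT with tumor and Tlr3-deficient without tumor having shared slide 2, and slide cannot be told apart from group. The array labelled Tlr3-deficient, no tumor, stands apart from its label of female mice: 4 of 4 Y-linked genes were well above background there and 0 of 4 on each other array, and Xist, the RNA that coats an inactive X chromosome, read -4.05 there against 3.80 to 4.06 elsewhere. Tlr3 read -3.92 and -3.95 on the WT arrays and -5.45 and -5.30 on the Tlr3-deficient arrays without and with tumor. Replicate spots of the same probe on the WT array without tumor scattered with an SD of 0.347 log2 in columns 1 to 51 and 0.112 in columns 52 to 85, whereas this SD was 0.0767 to 0.134 in either region of the other 3 arrays. The scanner's error model gave a log2 difference of a bright spot an error of about 0.20, quoted as ± below; it covers a spot and not animals. Over all columns, replicate spots gave a difference an SD of 0.315 for tumor in WT and 0.314 for genotypes without tumor. The SD was 0.141 for tumor in Tlr3-deficient cells and 0.143 for genotypes with tumor. Over all columns, the ± of a bright spot thus understates the scatter of spots where the WT array without tumor is compared. This holds for columns 1 to 51, where that array alone had an SD of 0.347, above the 0.315 and 0.314. It was not shown for columns 52 to 85, where that array had 0.112.

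Among the genes for RNA binding, sensing and cleavage, the Ifit genes were highest on the array labelled Tlr3-deficient, no tumor. Ifit1, Ifit2 and Ifit3 encode tetratricopeptide proteins that bind viral RNA or each other and lie side by side on chromosome 19. Ifit1 (probe at chr19:34723796-34723855, plus strand, mm9) read -1.65 in WT without tumor, -2.13 in WT with tumor, -0.89 in Tlr3-deficient cells without tumor and -2.18 in Tlr3-deficient cells with tumor. Ifit3 (chr19:34663105-34663164, plus strand) read 0.56, -0.05, 1.74 and 0.62 in the same order of arrays. Ifit2 (chr19:34650244-34650303, plus strand) read -3.44, -3.56, -2.25 and -3.07. For each of the 3 genes the tumor array lay below the array without tumor in both genotypes. The Tlr3-deficient tumor array was the lowest of the 4 for Ifit1 and the WT tumor array was the lowest for Ifit2 and Ifit3. Ifit3 has a near-identical copy, Ifit3b, whose probe read -3.94, -4.72, -1.84 and -3.18. No 20-base run was shared between the probe of any member and the probe of another gene, but whether a probe also captures the transcript of a copy was not tested, so the share of each copy is uncertain.

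The 2′-5′-oligoadenylate synthetases, which make the messenger that activates RNase L, were higher on the tumor arrays in both genotypes at under 2-fold. Oas2 read -3.29, -2.31, -2.51 and -1.58 in the same order, and Oas1a read -1.44, -0.54, -1.11 and -0.49. Oas1a and Oas2 thus had both tumor arrays above both arrays without tumor. The same order held for Oas3, whose probe was not well above background without tumor and read -5.30 and -4.97 with tumor. Its log2 differences of 0.998 ± 0.70 and 0.87 ± 0.61 are measured against a dim spot and give no fold. Oas1b, an enzymatically inactive relative, had tumor differences of 0.07 in WT and 0.78 in Tlr3-deficient cells. The oligoadenylate synthetase-like genes Oasl1 and Oasl2 differed by 0.65 and 0.51 in WT and by 0.47 and 0.28 in Tlr3-deficient cells.

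Zbp1, a sensor of left-handed nucleic acids that can trigger necroptosis, was higher with tumor in both genotypes. Its probe (chr2:173032113-173032170, minus strand, mm9) read -2.48 and -1.39 in WT without and with tumor, and -3.22 and -2.19 in Tlr3-deficient cells. Ddx60, a helicase that takes part in antiviral RNA sensing, read -5.09 and -3.87 in WT and -5.11 and -4.35 in Tlr3-deficient cells (chr8:64516003-64516062, plus strand), with both arrays without tumor not well above background. Adar, which edits adenosine to inosine in double-stranded RNA, read -0.93 in WT without tumor and 0.56, 0.39 and 0.33 on the other arrays (chr3:89557158-89557217, plus strand). Adar therefore was low on a single array, and its other probe was not: that probe read -0.49, -0.42, -0.50 and -0.49. Samd9l, an antiviral restriction factor, had a range over the 4 arrays of 0.33 log2. The probes of Isg20, a 3′-5′ exonuclease, disagreed: the brightest had a range of 0.20, and the other read 0.08 in WT without tumor and 0.78, 0.84 and 0.97 on the other arrays.

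Rsad2 had the widest range of the 33 members, 2.92 log2 over the 4 arrays. It encodes viperin, a radical SAM enzyme that makes a chain-terminating nucleotide against viral polymerases. Its brightest probe (chr12:27127859-27127918, minus strand, mm9) read -2.55 in WT without tumor, 0.37 in WT with tumor, -1.20 in Tlr3-deficient cells without tumor and -1.50 in Tlr3-deficient cells with tumor. WT with tumor was high, WT without tumor was low, and both Tlr3-deficient arrays lay between them. Its other 2 probes span exon junctions, and are shown 5′ to 3′ because they read separate stretches of the transcript at other places on the array:
Rsad2 probe in array column 60, chr12:27135585-27138886, minus strand: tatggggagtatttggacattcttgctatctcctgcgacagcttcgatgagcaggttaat
Rsad2 probe in array column 77, chr12:27130424-27133462, minus strand: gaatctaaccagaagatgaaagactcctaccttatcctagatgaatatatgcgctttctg

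The probe in column 60 read -4.66, -2.81, -3.89 and -5.01, and the probe in column 77 read -5.06, -3.26, -4.79 and -5.52 in the same order of arrays. All 3 Rsad2 probes were highest on the WT tumor array. With tumor in WT they differed by 2.92, 1.85 and 1.80 log2, in Tlr3-deficient cells by -0.31, -1.12 and -0.73, and between genotypes with tumor by -1.87, -2.20 and -2.26. The probe in column 77 was well above background on only 3 arrays. Its -5.52 lies under -5.42, the lowest signal well above background on the Tlr3-deficient tumor array. Its -0.73 and -2.26 are therefore measured against a dim spot. The 3 probes disagreed on which array was lowest: WT without tumor for the brightest probe and Tlr3-deficient with tumor for the others. Cmpk2, a mitochondrial nucleotide kinase whose gene neighbours Rsad2, read -0.93, -0.48, -0.56 and -0.71 on its brightest probe and -3.13, -3.30, -3.36 and -3.28 on its other probe, so the WT tumor array was the highest on the first probe alone. Mx2, an antiviral dynamin-like GTPase, was lowest in WT without tumor at -2.46 and read -1.70, -1.82 and -1.46 on the other arrays.

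**Figure D2:**
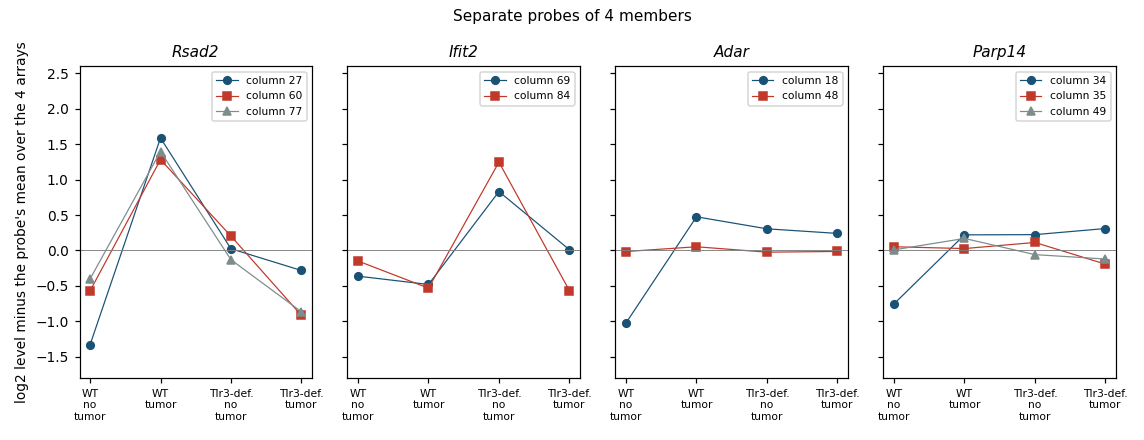
Separate probes of Rsad2, Ifit2, Adar and Parp14 on the 4 arrays, as log2 level minus the probe's mean over the arrays; the legend gives each spot's column on the array. The probes of Rsad2 peak together on the WT tumor array and those of Ifit2 on the Tlr3-deficient array without tumor, whereas only the brightest probes of Adar and Parp14 lie low on the WT array without tumor.

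In the ISG15 system, Isg15, a ubiquitin-like protein joined to newly made proteins, read -1.20 in WT without tumor, -0.22 in WT with tumor, and -0.81 and -0.76 in Tlr3-deficient cells. The WT tumor array was high and the WT array without tumor low, 0.98 ± 0.21 log2 apart, which is under 2-fold. Usp18, which removes ISG15 and dampens interferon receptor signalling, had a range of 0.35 over the 4 arrays. Trim25, a ligase for ISG15 and ubiquitin, had a range of 0.59 and was highest in WT without tumor. Stat2 and Irf9, the ISGF3 subunits particular to type I and type III interferon signalling, changed by less than 2-fold everywhere. Stat2 read 1.07, 0.97, 0.56 and 0.81, and Irf9 read 0.92, 1.21, 1.08 and 1.03.

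Parp9 and Parp14, which attach or read ADP-ribose in interferon signalling, were lowest in WT without tumor. Parp14 read 1.36 there and 2.33, 2.34 and 2.42 on the other arrays. Its other 2 probes differed by -0.03 and 0.16 with tumor in WT, against 0.97 for the brightest. Parp9 read -0.55 in WT without tumor, 0.03 on both tumor arrays and -0.26 in Tlr3-deficient cells without tumor.

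Among the membrane proteins, Ifitm1, which hinders fusion of viral and cell membranes, was higher with tumor in both genotypes. Its probe (chr7:148155455-148155514, plus strand, mm9) read 1.39 and 2.51 in WT without and with tumor and 0.78 and 1.83 in Tlr3-deficient cells, so both tumor arrays lay above both arrays without tumor. Its relative Ifitm3 was low only in WT without tumor, at 1.96 against 2.91, 2.96 and 3.12. Ifitm2  had a range of 0.37. Bst2, or tetherin, which holds budding viruses at the cell surface, was highest on the Tlr3-deficient tumor array at 2.28, against 1.47 to 1.74 elsewhere. Rtp4, a receptor transporter protein, read 2.08, 2.32, 1.86 and 1.94.

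Of the remaining members, Ifi44 read -2.76 in WT without tumor and -1.96, -1.75 and -1.94 on the other arrays (chr3:151394035-151394094, minus strand, mm9). Lgals3bp, a secreted galectin-binding glycoprotein, read 3.22 and 3.70 in WT and 3.25 and 3.73 in Tlr3-deficient cells, a difference with tumor of 0.48 and 0.47 ± 0.20. Ifi35 and Xaf1, an antagonist of the apoptosis inhibitor XIAP, had ranges of 0.38 and 0.34. Of the 33 members, 20 had a range under 1 log2 unit, and 24 stayed under 2-fold in all 4 comparisons between arrays. Neither count is set against a share over all genes.

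**Figure D3:**
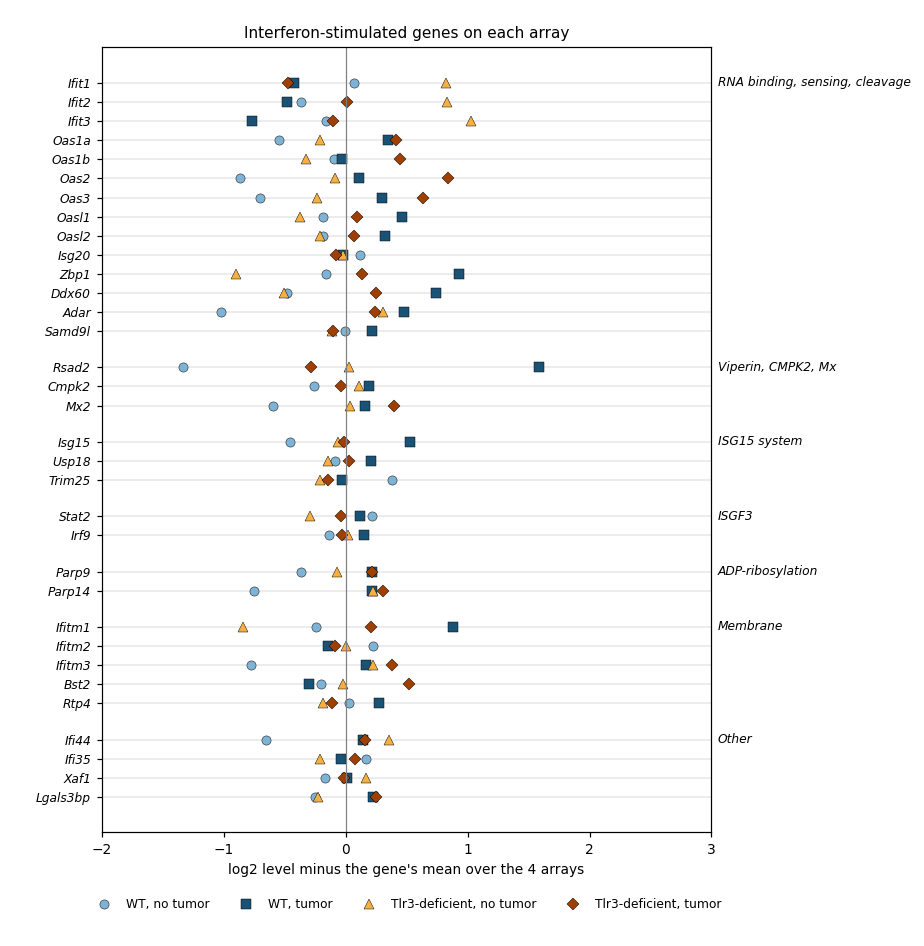
Level of the 33 members on each array as log2 minus the gene's mean over the 4 arrays, grouped by role. The WT tumor array (dark squares) is the highest for 14 members and the WT array without tumor (light circles) the lowest for 15. These counts have no share over all genes beside them. Rsad2 has the widest range, 2.92.

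With tumor in WT cells, Rsad2 was 7.57-fold higher, Adar 2.82-fold, Ddx60 2.33-fold against a dim spot, Ifitm1 2.17-fold and Zbp1 2.13-fold higher. The log2 differences were 2.92 ± 0.21 for Rsad2, 1.50 ± 0.21 for Adar, 1.22 ± 0.41 for Ddx60, 1.12 ± 0.20 for Ifitm1 and 1.09 ± 0.22 for Zbp1. These 5 of 33 tested members were at least 2-fold higher (15.2%), where 5.56% of 17821 genes were, and 0 were at least 2-fold lower, where 1.56% of genes were. Ifit3, at -0.61, was the lowest end of the list. Ddx60 and Oas3 were well above background only with tumor and so entered the 33 through the array where they were brighter. Of the 31 members well above background on all 4 arrays, 4 were at least 2-fold higher and the median was 0.45. The share of all genes under that filter is not given here, and the 5.56% belongs to the wider filter. The median of the 33 was 0.48 (0.45 with bounds) and 24 of 33 lay above 0, against a median of -0.01 and 49.2% above 0 over all genes tested. The differences of 20 members were larger than 2 spot errors of the scanner's model. For bright spots that error is smaller than the replicate-spot SD of 0.315 over all columns in this comparison. The count of 20 has no share over all genes beside it, so it is a description only. Parp14 (0.97), Isg15 (0.98), Oas2 (0.98), Oas3 (0.998) and Ifitm3 (0.95) lay just under the 2-fold line, and Parp14 and Ifitm3 passed it under quantile scaling (1.03 and 1.02), with the value table (1.06 and 1.05) and under normexp background correction (1.36 and 1.26), as did Isg15 under normexp (1.10). Ddx60 fell under 2-fold with normexp (0.11), the mean of its probes (0.78), quantile scaling (0.93) and the value table (0.92), and its other probe differed by 0.34. Adar fell to 0.78 with the mean of its probes. Zbp1 and Ifitm1 fell to 0.96 and 0.96 with normexp and to 0.94 and 0.97 with median centring. Rsad2 stayed between 2.19 and 2.93 under every alternative that kept its brightest probe or averaged its probes.

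The position of a spot on the array moved with part of this difference. For Parp14, Ifitm3, Isg15 and Adar, the median difference of neighbouring spots of other genes (within 6 rows and 3 columns) was 0.57, 0.50, 0.42 and 0.33, against 0.11 for Rsad2. After this local median was taken off, Parp14 differed by 0.40, Ifitm3 by 0.44, Isg15 by 0.57, Adar by 1.16 and Rsad2 by 2.81. Zbp1, Ddx60 and Ifitm1 then differed by 1.39, 1.37 and 1.23. Of the 33 members, 14 lay above the 90th percentile of their own neighbours and 2 below the 10th. The lowest level was on the WT array without tumor for 9 of the 18 members in columns 1 to 51 and for 6 of the 15 members in columns 52 to 85. The matching shares over all genes are not given here. Over the 15 members whose brightest probe lies in columns 52 to 85, the median was 0.24 and 1 (Ifitm1) was at least 2-fold higher, where the median of 7237 genes in these columns was -0.01 and 3.34% were. The other 2 probes of Rsad2 also lie there, at 1.85 and 1.80.

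**Figure D4:**
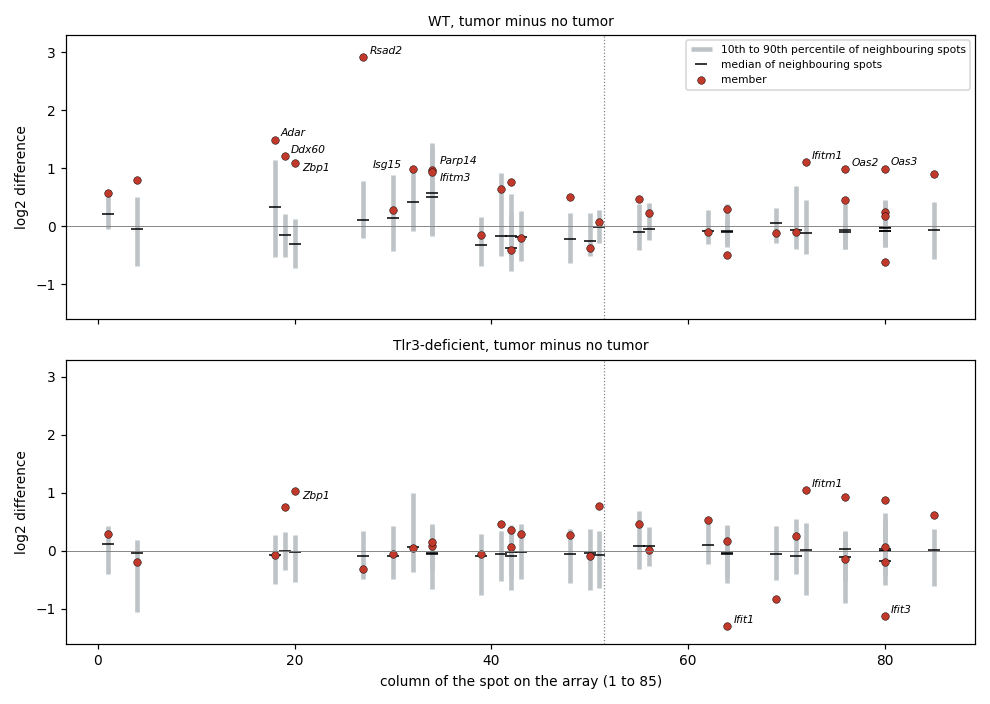
Log2 difference with tumor of each member (red) at its spot's column on the array, with the median and the 10th to 90th percentile of the differences of 20 to 64 neighbouring spots. The dotted line separates columns 1 to 51 from 52 to 85; Rsad2 at 2.92 lies far above its neighbours in WT, while Parp14 and Ifitm3 lie among neighbours that are themselves above 0.

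With tumor in Tlr3-deficient cells, Ifitm1 was 2.07-fold and Zbp1 2.04-fold higher, and Ifit1 was 2.44-fold and Ifit3 2.19-fold lower. The log2 differences were 1.05 ± 0.20 for Ifitm1, 1.03 ± 0.22 for Zbp1, -1.29 ± 0.21 for Ifit1 and -1.13 ± 0.20 for Ifit3. Thus 2 of 33 members were at least 2-fold higher (6.06%), where 4.51% of 17993 genes were, and 2 were at least 2-fold lower, where 3.90% of genes were, both shares near the background. Ifit2 differed by -0.82 on its brightest probe and by -1.81 on its other probe. Rsad2, Adar and Isg15 differed by -0.31, -0.06 and 0.05. The members' median was 0.16 with 22 of 33 above 0, against -0.01 and 48.9% over all genes. Ifit1 stayed between -1.33 and -1.16 and Ifitm1 between 1.04 and 1.11 under every alternative, while Zbp1 fell under 2-fold with normexp (0.63) and Ifit3 with normexp (-0.98) and with the local median taken off (-0.96). The control in this comparison is the array with Y-linked transcripts, and the part of that in the differences was not tested.

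Between genotypes, the tumor differences themselves differed most for Rsad2: the difference in Tlr3-deficient cells minus that in WT cells was -3.23 log2, a ratio of 9.36-fold. Adar followed at -1.56, a ratio of 2.95-fold. These 2 of 31 members lay at least 2-fold lower, where 4.44% of 15675 genes did, and 0 lay at least 2-fold higher, where 2.16% did. Both counts are near the background. Oas1b was at the upper end at 0.70. The median of the members was -0.23 and 24 of 31 lay below 0, against a median of 0.03 and 52.6% above 0 over all genes. Rsad2 kept a value between -3.25 and -2.89 under every alternative that kept its probe, and Adar fell to -0.81 with the mean of its probes. Without the brightest probe, the other probes of Rsad2 also were higher with tumor in WT and lower with tumor in Tlr3-deficient cells. Of the 33 members, 18 were higher with tumor in both genotypes and 5 lower in both, at any size. No share over all genes is given for these counts, so they are a description only. Red cell markers moved the same way here: 3 of 3 tested were at least 2-fold lower, with a median of -2.35, and their part in the Rsad2 value was not tested. This contrast sets all 4 arrays against each other once and cannot be tested.

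**Figure D5:**
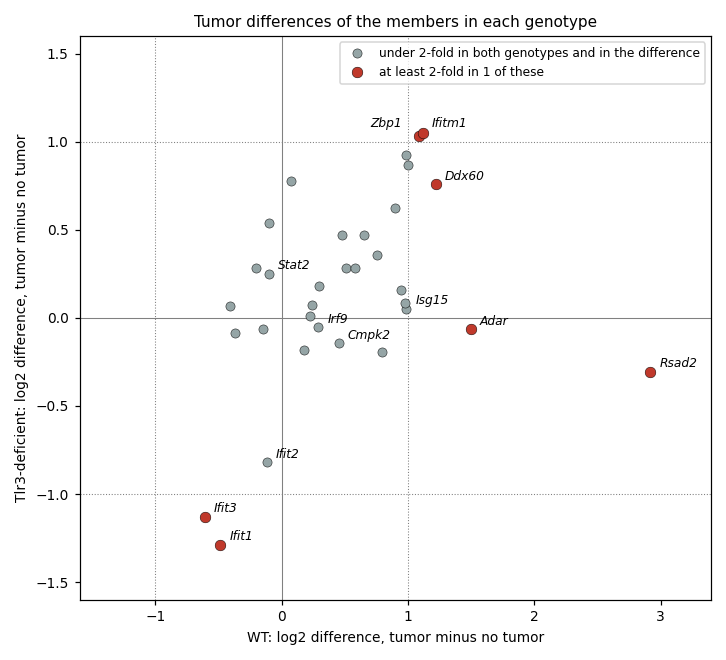
Log2 difference with tumor in WT (horizontal axis) against that in Tlr3-deficient cells (vertical axis) for the 33 members, with dotted lines at 2-fold. Red points reached 2-fold in either genotype or in the difference between them; Rsad2 lies at 2.92 and -0.31, Ifitm1 and Zbp1 are above 1 on both axes, and Ifit1 and Ifit3 are below 0 on both.

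Without tumor, the array labelled Tlr3-deficient had higher Rsad2 (2.56-fold), Adar (2.51-fold), Ifit2 (2.29-fold), Ifit3 (2.27-fold) and Ifi44 (2.01-fold) than the WT array. Their log2 differences were 1.36 ± 0.22, 1.33 ± 0.21, 1.19 ± 0.23, 1.18 ± 0.20 and 1.01 ± 0.23. These 5 of 31 members were at least 2-fold higher (16.1%), where 5.80% of 17488 genes were, and 0 were at least 2-fold lower, where 2.37% of genes were. Zbp1 was the lowest at -0.74. The median was 0.18 with 18 of 31 above 0, against -0.05 and 44.5% over all genes. This comparison shares the WT array without tumor with the tumor comparison in WT, so for Rsad2 and Adar, low on that array, the values 1.36 and 2.92 and the values 1.33 and 1.50 rest on the same spot. Ifi44 was lowest there too, while Ifit2 and Ifit3 were not, and the other probe of Ifit2 differed by 1.40. The comparison also shares the array labelled Tlr3-deficient, no tumor, with the tumor comparison in those cells, where Ifit1, Ifit2 and Ifit3 differed by -1.29, -0.82 and -1.13, against 0.75, 1.19 and 1.18 here. Adar fell to 0.66 and Rsad2 to 0.80 with the mean of their probes, Ifit2 to 0.35 and Ifit3 to 0.86 with normexp, and Ifi44 was under 2-fold in every alternative that kept its probe other than the filters on dim probes.

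With tumor, Rsad2 was 3.66-fold lower in Tlr3-deficient cells, a log2 difference of -1.87 ± 0.20, and it was the single member past 2-fold. That is 1 of 33 members lower, where 2.65% of 18109 genes were, and 0 higher, where 2.91% of genes were. Bst2 was at the upper end at 0.81, followed by Oas2 at 0.73 and Ifit3 at 0.67, and Zbp1 was at -0.80. The median was -0.05 with 14 of 33 above 0, as over all genes, where the median was -0.05 with 42.9% above 0. Neither array of this comparison is the one with the wider spot scatter or the one with Y-linked transcripts, and Rsad2 stayed between -2.11 and -1.69 under every alternative that kept its probe. The arrays come from different slides.

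The genes that act upstream of the members mostly stayed under 2-fold. Of 9 receptor and kinase genes, 0 changed by 2-fold in any of the 4 comparisons. Ifnar1 and Ifnar2, the receptor subunits, differed with tumor by -0.13 and 0.04 in WT and by -0.11 and 0.36 in Tlr3-deficient cells. Among 6 interferon regulatory factors, Irf5, which acts in myeloid cells, was higher with tumor in both genotypes (1.04 and 1.82), and Irf7, the amplifier of interferon production, differed by 0.30 and 0.15. The 7 inhibitors of the pathway on the list, which include Isg15 and Usp18, had 0 called. Of 12 interferon genes with a probe, 5 were well above background in the WT tumor comparison and 6 in the Tlr3-deficient comparison, with 0 called, and Ifnb1 was well above background on no array. Among the RNA sensors and their adaptors, the kinase gene Ikbke was the single call with tumor, at -1.27 in WT, and Ddx58 and Ifih1, which encode cytosolic RNA sensors, differed by 0.37 and 0.18 in WT and by -0.40 and 0.21 in Tlr3-deficient cells.

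Among 45 tested of 51 other interferon-stimulated genes, a list without the members, 5 passed 2-fold upward with tumor in WT and 0 downward, and 7 were higher and 1 lower in Tlr3-deficient cells. The shares higher were 11.1% and 15.6%, against 5.56% and 4.51% of all genes tested. Of all genes, 1.56% and 3.90% were lower. The medians were 0.22 and 0.31, against -0.01 in both genotypes over all genes. In WT the 5 were Lgals9 (2.20), Slfn2 (1.55), Slfn9 (1.40), Epsti1 (1.38) and Gbp3 (1.22). In Tlr3-deficient cells the 7 were the chemokine Ccl5 (2.16), the peptide transporter Tap1 (1.47), the immunoproteasome subunits Psmb9 (1.46) and Psmb8 (1.31), Slfn2 (1.24), Epsti1 (1.09) and Ifi47 (1.04), and the lower gene was Ifit3b (-1.34). Without tumor, 5 were higher in Tlr3-deficient cells, with Ifit3b at 2.10 and Lgals9 at 1.85 at the top, and with tumor 3 were, led by Ifi47 at 2.37. These are 11.1% and 6.67% of the list, against 5.80% and 2.91% of all genes. The difference of tumor differences had a median of 0.06 over these 45 genes, with 24 above 0. For the members it was -0.23, with 7 of 31 above 0. Of the 45, 2 lay at least 2-fold higher and 3 lower, where 2.16% and 4.44% of all genes did. In the promoter windows, 22 of 42 of these genes (52.4%) held the response element core. Among the members with a window, those with the motif had a median of 0.90 with tumor in WT (11 members) and those without it 0.37 (14 members), and in Tlr3-deficient cells 0.16 and -0.02. With tumor in WT, 2 of the 11 and 2 of the 14 were at least 2-fold higher. The members with the motif include Oas3, which gives no fold. Whether the motif goes with the difference was not tested.

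Markers of other cells moved with the tumor. With tumor, 11 of 11 neutrophil markers rose by 2-fold or more in WT and 10 of 11 in Tlr3-deficient cells, with medians of 4.34 and 3.75, and their summed linear level relative to the 75th percentile was 3.92 and 107 in WT without and with tumor and 3.52 and 68.4 in Tlr3-deficient cells. Of these markers, 4 were well above background in WT without tumor, 6 in Tlr3-deficient cells without tumor and 11 on each tumor array. Of 8 pan-leukocyte markers, 7 were higher in both genotypes (medians 2.33 and 3.02, summed levels 10.7, 21.2, 8.65 and 19.5). Lcp1, the marker not called, was the brightest of them at 3.19, 3.66, 2.86 and 3.53 log2. It weighs most in these sums, which therefore understate the rise of the other markers. Red cell markers moved in the same direction as Rsad2 in all 4 comparisons: 2 of 4 tested were higher with tumor in WT (median 1.88, or 1.52 with bounds), 2 of 3 lower in Tlr3-deficient cells (-1.22), 2 of 3 higher on the array labelled Tlr3-deficient, no tumor (1.0) and 4 of 4 lower in Tlr3-deficient cells with tumor (-1.77). Their summed level was 136, 245, 270.4 and 115 in the order of arrays used above, and 3, 4, 3 and 3 of the 4 were well above background. Slc4a1, the red cell anion exchanger, read -2.95, 0.21, -1.47 and -1.81, so its tumor difference was 3.16 in WT and -0.34 in Tlr3-deficient cells. Alveolar type I cell markers were lower with tumor in 3 of 8 in WT and 4 of 8 in Tlr3-deficient cells (medians -0.93 and -1.07), and fibroblast markers in 0 of 7 and 3 of 7 (-0.38 and -0.50). Macrophage markers were higher in 3 of 9 tested in WT and 5 of 10 in Tlr3-deficient cells (summed levels 6.07, 5.40, 4.95 and 12.8). Monocyte and dendritic cell markers were higher in 2 of 8 and 3 of 8, and B and plasma cell markers in 2 of 6 and 3 of 6. T and NK cell markers were higher in 0 of 6 tested in WT and 2 of 6 in Tlr3-deficient cells. Endothelial markers had 0 of 6 called with tumor in either genotype (medians -0.49 and -0.40). Markers also differed between genotypes without tumor, Tlr3-deficient minus WT. The medians were 0.85 for fibroblast, 0.60 for type I cell, 0.44 for endothelial and -0.33 for AT-II markers. Leukocyte lists ranged from -0.999 (T and NK cells) to 0.29 (monocytes and dendritic cells). Neutrophils and other leukocytes also transcribe interferon-stimulated genes; the part of these markers in the members' differences was not tested, and in sorted bulk RNA fewer cells of a type and less RNA per cell cannot be told apart. The summed level of the members was 59.9, 74.4, 65.1 and 72.7 in the same order.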

How the data were processed

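AT-II cell RNA of 4 groups was hybridised to 1 Cy3 Agilent array each. The deposited scanner files hold a linear intensity per spot, extracted with Agilent Feature Extraction 10.7.3.1 on design 014868 (mm9 annotation), background-subtracted and detrended but not scaled between arrays, per the file headers. The authors' deposited value table holds log2 values of the same arrays and was used as an alternative; the sources used here do not say how it was made.

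Control spots and outlier-flagged spots were dropped. Intensities were divided by each array's 75th percentile and logged, spots of a probe averaged, and each gene represented by its brightest probe. A gene was tested if either compared array had it well above background (all 4 for the difference of tumor differences) and called at 2-fold. A bound takes a spot not well above background at its own signal or the array's lowest signal well above background, whichever is higher. For Ddx60 in WT that was its own spot, at -5.09 against -5.25, so its fold is the plain difference. Of 41158 gene probes, 27747 were named by accession, and 33 of the 34 members with a probe. Alternatives were quantile scaling, median centring, normexp (offset 50, limma 3.58.1 in R 4.3.3), the value table, the mean of all probes and other filters; subtraction of the local median and columns 52 to 85 alone were chosen after seeing the data. Scripts ran in Python 3.11.15 and were tested on simulated data.

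The members and gene lists were chosen with earlier results of these data known. A gene of the receptor and kinase list is not reported here. Genes named are the members at least 2-fold different, the ISGF3 subunits, the ends of each comparison, and for the rest at least a range; other lists give up to 6 called genes. Mouse genome annotation of mm9 was not used here, so exon and untranslated positions of probes are not given.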

Additional observations from a re-analysis of the deposited data

Results flagged for a closer look

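The brightest probes of Rsad2 and Adar differed in their tumor change between genotypes. They were the 2 of 31 members at least 2-fold lower in this contrast, where 4.44% of 15675 genes were, a count near the background. The tumor difference in Tlr3-deficient cells minus that in WT cells was -3.23 log2 for Rsad2, from 2.92 in WT and -0.31 in Tlr3-deficient cells. For Adar it was -1.56, from 1.50 and -0.06, and the other Adar probe differed by 0.07 and 0.01. Each was picked out because the measured differences of the genotypes have opposite signs and lie over 2-fold apart, but the Adar difference in Tlr3-deficient cells is smaller than its spot error of 0.20, and its other probe has 1 sign in both genotypes. The other probes of Rsad2 differed by 1.85 and 1.80 in WT and by -1.12 and -0.73 in Tlr3-deficient cells. With 1 array per group, the difference was not tested.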

How the results depend on the processing

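Median centring lowered the median of all genes in WT from -0.01 to -0.15, and normexp to -0.14; the split of genes higher and lower there was 990 and 278, 735 and 367 with quantile scaling, and 711 and 415 with median centring. In WT, 5 of 33 members were at least 2-fold higher with tumor, 3 with the mean of all probes and 3 with median centring. Columns 52 to 85 alone hold 15 of the 33 members, so a lower count there can come from members left out. There, 1 of 15 was higher in WT, where 3.34% of 7237 genes were. In Tlr3-deficient cells the 2 higher became 1 with normexp, and the 2 lower became 1 with normexp and 1 with the local median taken off. In columns 52 to 85, 1 of 15 was higher and 2 were lower, where 4.62% and 2.49% of genes were. Without tumor, the 5 higher in Tlr3-deficient cells became 2 with the mean of all probes and 3 with the local median taken off. In columns 52 to 85, 2 of 14 members were higher, where 2.11% of 6980 genes were. With tumor, the 1 lower became 0 in columns 52 to 85, where the brightest Rsad2 probe does not lie and its other probes differed by -2.20 and -2.26. For the difference of tumor differences, 0 higher became 1 with quantile scaling and 1 with the value table (Oas1b), and 2 lower became 5 with normexp. In columns 52 to 85, 0 of 14 members were lower, where 2.91% of genes were. The brightest probes of Rsad2 and Adar do not lie there. The stricter motif lowered 11 members to 6. Over these counts and the medians, 120 alternative values moved by no more than 1.5 times (counts) or the replicate-spot SD (medians). The median between genotypes without tumor turned from 0.18 to -0.04 with normexp, and that with tumor from -0.05 to 0.01 with median centring. For single members 1309 values kept their side of 2-fold, 22 passed it, 24 fell under it and 0 reversed while at least 2-fold. Many of the 1309 could not differ. The filters on dim probes and the limit to columns 52 to 85 leave a member's own difference unchanged. The mean of all probes does so for the 20 members with 1 probe. No paired analysis was possible because each group has 1 array without a replicate number, and no array could be left out and no slide fitted as a block. Signal over background limits Oas3, Ddx60, Mx1 and the Rsad2 probe in column 77.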
